A study of Mus musculus with 2 samples.

Results

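The genes described here are 10 members of the purinergic system: the nucleotide receptors P2ry12, P2ry13, P2ry6, P2rx4 and P2rx7, the surface enzymes Entpd1 and Nt5e, and the adenosine receptors Adora3, Adora1 and Adora2a. They were chosen by gene symbol, and all 10 are among the 55450 gene identifiers of the deposited count tables. The study asked how the RNA of single microglia differs between anesthetized and awake mice. The animals were adult males of the inbred strain C57BL/6J, injected with 100 mg/kg sodium pentobarbital, a barbiturate anesthetic (3 mice, called anesthesia), or with normal saline (3 mice, called awake). Brains of both groups were minced, digested with collagenase IV and DNase I, cleared of myelin by a Percoll gradient, and CD11b+ CD45low cells, the usual gate for microglia, were sorted and captured on the 10x Genomics 3' platform. Each group is 1 library. The sources used here do not say whether its mice were pooled, or at what hour and how long after injection the brain was removed. No difference below therefore has a replicate check, no test was possible, and each 95% interval covers counting error only. Group, library, handling and capture cannot be told apart.

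ATP and ADP leave active or damaged cells and are read by P2Y receptors, which couple to G proteins, and by P2X receptors, which are ATP-gated cation channels. Surface enzymes then strip the phosphates in steps. Entpd1, also called CD39, turns ATP and ADP into AMP, and Nt5e, also called CD73, turns AMP into adenosine, which acts on the adenosine receptors. In the brain, microglia use this system to find ATP released nearby, and P2ry12 is a widely used marker that separates homeostatic microglia from other myeloid cells.

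The anesthesia library held 61139016 unique molecular identifiers (UMIs, each counting 1 captured RNA molecule) in 9412 barcodes, and the awake library 53262885 in 8600. The barcodes had a median of 5347 UMIs in the anesthesia and 5883 in the awake library, with 2.26% and 1.45% of UMIs from mitochondrial genes, and 14 barcodes occur in both. Cells were clustered without the purinergic genes, and a cluster was called microglia-like where its 10 leading genes held at most 1 marker of any other class and at least 7 of 10 microglial markers, none of them a purinergic gene, were seen in 25% of its cells. Clusters of the other classes met the second condition too, so the division rests on the first and on a second round of clustering. Any cluster with 1 leading marker of another class also went into the second round. Clusters from that round were not given this name. A cluster led by Mki67, Cenpf and Top2a (12 anesthesia and 12 awake cells) was left unnamed in this way. Microglia-like cells were 8437 of 8944 filtered anesthesia cells and 7519 of 8223 filtered awake cells. The 10 microglial markers summed to 23750 CPM (counts per 1000000 UMIs of the class) in anesthesia and 26940 CPM in awake microglia-like cells, and to 11738 CPM in anesthesia and 8061 CPM in awake endothelial-like cells. Most of these cells lay in clusters dominated by 1 library: clusters 2, 8 and 11 held 2111, 2122 and 3231 anesthesia cells against 63, 327 and 100 awake cells, while clusters 0 and 1 held 185 and 235 anesthesia cells against 2799 and 3313 awake cells. Border-associated macrophage-like cells numbered 39 in the anesthesia and 51 in the awake library, and endothelial-like cells 124 and 109. The sort sets these numbers.

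All levels are in CPM. Each molecule is counted by its 3' end, so CPM was not divided by gene length. Levels of different genes are set side by side on this scale. Whether capture and read assignment were equal between genes was not tested, so the order of genes is a description. In microglia-like cells 7 of the 10 members reached 200 UMIs over both libraries and count as measured. Their order was P2ry12, Entpd1, P2ry13, P2ry6, P2rx7, P2rx4 and Adora3 in the anesthesia library, and P2ry12, P2ry13, Entpd1, P2ry6, Adora3, P2rx7 and P2rx4 in the awake library. Neighbours in each order had intervals that did not overlap, which says nothing of the spread between animals. Adora1, Adora2a and Nt5e were near the detection limit in both libraries.

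**Figure D1:**
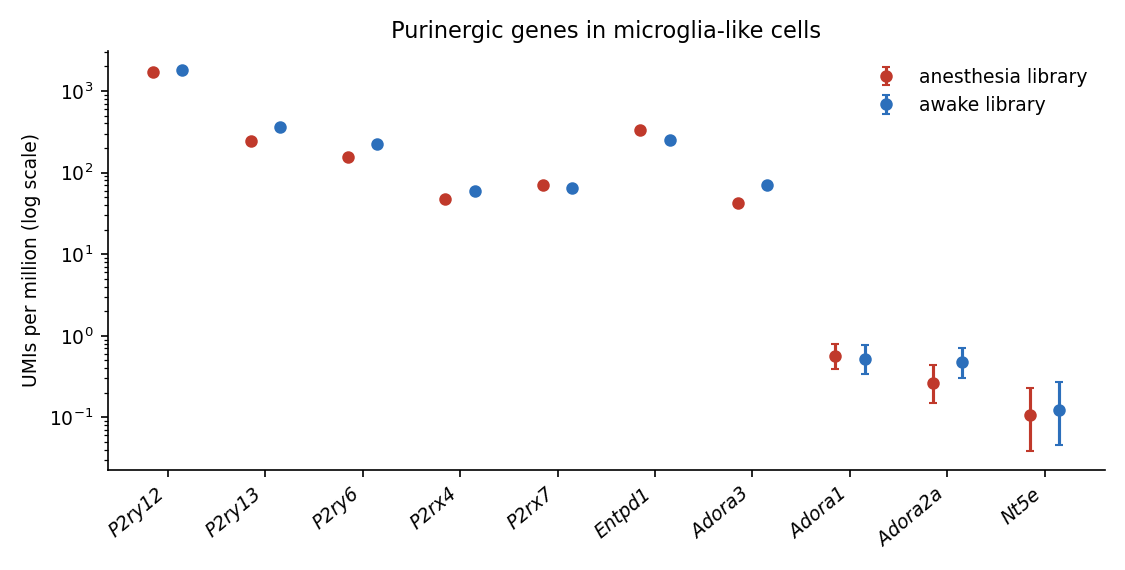
Level of each purinergic gene in microglia-like cells, in CPM on a log scale, for the anesthesia and the awake library. Points are the sum over cells of 1 library and bars are exact 95% Poisson intervals of the count, smaller than the points for 7 genes; P2ry12 lies at 1701 and 1806 CPM, and Adora1, Adora2a and Nt5e lie below 1 CPM in both libraries.

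P2ry12 encodes the ADP receptor that steers microglial processes toward sources of ATP. It was by far the most abundant member, with 95891 UMIs in anesthesia and 86964 in awake microglia-like cells. That is 1701 CPM (1690 to 1712) in the anesthesia and 1806 CPM (1794 to 1818) in the awake library, a log2 ratio of -0.09 (-0.10 to -0.07), anesthesia over awake. The intervals do not overlap at this depth, and the difference is small beside the spread of all 11392 measured genes, which had a median of -0.02 and ran between -0.83 and 0.94 from the 5th to the 95th percentile. With the trend of GC content and transcript length over all genes removed, the P2ry12 log2 ratio was -0.33. P2ry12 lies on chromosome 3 at 59216272 to 59262871 of GRCm38, on the minus strand inside Med12l, and its exons overlap exons of that gene on the other strand. Med12l had 47.8 CPM in the anesthesia and 34.0 CPM in the awake library.

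P2ry13 encodes a second ADP receptor, also coupled to the Gi class of G proteins, and lies 5389 bases from P2ry12 inside the same gene (chromosome 3, 59207892 to 59210882). It had 241 CPM (237 to 245) in the anesthesia and 361 CPM (356 to 367) in the awake library, from 13600 anesthesia and 17399 awake UMIs. The log2 ratio was -0.58 (-0.61 to -0.55), or 1.497-fold lower in the anesthesia library, just inside the 1.5-fold threshold. So these neighbouring ADP receptor genes differed between the libraries by unequal amounts.

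The stretches before the RefSeq start sites of P2ry12, P2ry13 and Adora3 are shown because P2ry12 and P2ry13 are neighbours that differed unequally and Adora3 is the measured member past 1.5-fold. Each is 250 bases of GRCm38.p6, read 5' to 3' on the strand of the gene, with matches to AGGAAG (or CTTCCT, its other strand) in capitals. AGGAAG is a core that ETS factors such as PU.1, a main regulator of microglia, can bind.
P2ry12, chr3:59262986-59263235, minus strand: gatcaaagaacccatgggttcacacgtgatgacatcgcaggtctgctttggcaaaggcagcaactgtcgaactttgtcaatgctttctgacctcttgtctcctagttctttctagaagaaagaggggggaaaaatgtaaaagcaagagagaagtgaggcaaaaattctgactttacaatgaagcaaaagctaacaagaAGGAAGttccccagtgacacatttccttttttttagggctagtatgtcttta
P2ry13, chr3:59210883-59211132, minus strand: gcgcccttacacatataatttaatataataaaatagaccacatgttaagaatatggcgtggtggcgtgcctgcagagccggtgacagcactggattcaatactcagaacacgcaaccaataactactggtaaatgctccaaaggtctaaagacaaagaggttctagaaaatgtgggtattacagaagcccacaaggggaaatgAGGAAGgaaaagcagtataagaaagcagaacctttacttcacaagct
Adora3, chr3:105904171-105904420, plus strand: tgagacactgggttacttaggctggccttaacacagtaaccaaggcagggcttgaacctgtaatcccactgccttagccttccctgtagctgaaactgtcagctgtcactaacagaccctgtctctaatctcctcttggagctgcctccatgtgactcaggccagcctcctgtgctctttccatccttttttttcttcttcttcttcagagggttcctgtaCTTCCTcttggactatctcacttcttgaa
The match begins 52 bases before the start in P2ry12, 47 bases before it in P2ry13 and, on the other strand, 29 bases before it in Adora3. RefSeq promoters were found for 8 of the 10 members, 11 windows in all. A match was found in 6 of the 11 windows, from 6 of the 8 members, and in 29.5% of all 32851 promoter windows. Of 3 other motifs searched on both strands, the E-box CACGTG occurs in the P2ry12 window shown and in 6.02% of all windows, and TATAAA, in 12.4% of all windows, is in none of the 11. GGGGCGGGG, a GC box, occurs in 10.4% of all windows, in none of the 3 shown, and in windows of P2rx7, Adora1 and Nt5e. A match of letters is a description and not a bound site.

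P2ry6 encodes the UDP receptor, which couples to Gq and is known for triggering uptake of debris by microglia. It lies on chromosome 7 at 100937630 to 100974649. P2ry6 had 154 CPM (151 to 158) in the anesthesia and 226 CPM (222 to 231) in the awake library, from 8695 anesthesia and 10906 awake UMIs. Its log2 ratio of -0.55 (-0.59 to -0.51) was close to that of P2ry13.

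The channels gave smaller differences, in opposite directions. P2rx4 encodes an ATP-gated channel studied in microglia of the spinal cord in nerve injury pain, and P2rx7 the low-affinity ATP-gated channel upstream of interleukin-1 beta release. The genes lie 16111 bases apart on the plus strand of chromosome 5, P2rx7 at 122643911 to 122691432 and P2rx4 at 122707544 to 122729738. P2rx4 had 47.8 CPM (46.0 to 49.7) in the anesthesia and 58.8 CPM (56.7 to 61.0) in the awake library, a log2 ratio of -0.30 (-0.38 to -0.22). P2rx7 had 70.1 CPM (68.0 to 72.4) in the anesthesia and 64.0 CPM (61.8 to 66.3) in the awake library, a log2 ratio of 0.13 (0.06 to 0.20).

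Entpd1, the ATP- and ADP-cleaving enzyme, was the measured member with the highest ratio. It lies on chromosome 19 at 40612366 to 40741602 and had 335 CPM (330 to 339) in the anesthesia and 250.3 CPM (246 to 255) in the awake library, from 18864 anesthesia and 12058 awake UMIs. The log2 ratio was 0.42 (0.39 to 0.45), or 1.34-fold higher in the anesthesia library. Nt5e, the next enzyme of the chain, had 6 UMIs in each library over 8437 anesthesia and 7519 awake cells. Its 0.106 CPM (0.0391 to 0.232) in the anesthesia and 0.125 CPM (0.0457 to 0.271) in the awake library allow no statement on a difference.

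Adora3, the gene of a Gi-coupled adenosine receptor, was the measured member with the lowest ratio. It had 42.6 CPM (40.9 to 44.4) in the anesthesia and 70.4 CPM (68.1 to 72.8) in the awake library, from 2403 anesthesia and 3391 awake UMIs, a log2 ratio of -0.72 (-0.80 to -0.65) or 1.65-fold lower in the anesthesia library. Adora3 (chromosome 3, 105870858 to 105908926) shares exons on its own strand with Tmigd3, which had 33 anesthesia and 38 awake UMIs, so how reads were divided between these genes makes its count uncertain. The Gi-coupled Adora1 had 32 UMIs in anesthesia and 25 in awake microglia-like cells, and the Gs-coupled Adora2a had 15 in anesthesia and 23 in awake cells. Differences in Adora1 and Adora2a were not detectable at this depth, since both intervals of the log2 ratio include 0 (-0.67 to 0.94 for Adora1 and -1.89 to 0.16 for Adora2a).

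Set against a threshold of 1.5-fold, 0 of the 7 measured members were higher and 1, Adora3, was lower in the anesthesia library. Of all 11392 measured genes 13.2% were past this threshold upward and 11.9% downward, 25.1% in all, so the members' count is near this background. The median log2 ratio of the 7 was -0.30. The number of members lower depends on the threshold, because P2ry13 and P2ry6 lie just inside it. At a log2 threshold of 0.32, in place of 0.58 for 1.5-fold, P2ry13, P2ry6 and Adora3 were lower and Entpd1 was higher. The share of all genes past this looser threshold was not counted. P2rx4, just inside it at -0.30, was at percentile 27.54 of the log2 ratios of all measured genes. At most 27.54% of these genes were therefore lower at this threshold. Entpd1, past the threshold at 0.42, was at percentile 79.6. With 7 members, the counts of 3 lower and 1 higher are too small to set apart from such shares. The call of Adora3 also rests on pooling the cells: averaged over clusters, its log2 ratio was -0.51, inside the threshold, and P2ry13 was the member past it.

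Because the libraries filled different clusters, the ratios were also taken within each of the 8 microglia-like clusters with at least 50 cells in each library. P2ry13 was lower in the anesthesia library in 8 of 8 clusters, with log2 ratios of -0.87 to -0.21, and 7 of the 8 intervals lay below 0. P2ry6 was lower in 8 of 8, with 6 intervals below 0, and Entpd1 was higher in 8 of 8, at 0.28 to 0.60, with 7 intervals above 0. For these genes the direction seen in the pooled cells was thus also seen cluster by cluster. P2rx4 was lower in 8 of 8 clusters, but 2 intervals lay below 0. Adora3 was lower in 7 of 8, with 4 intervals below 0. P2ry12 had no common direction: it was higher in 3 and lower in 5 clusters, with 2 intervals above and 4 below 0. P2rx7 was higher in 5 clusters and lower in 3, with 4 intervals above and 0 below 0. The clusters of 1 library come from the same animals and capture, so they are not replicates.

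**Figure D2:**
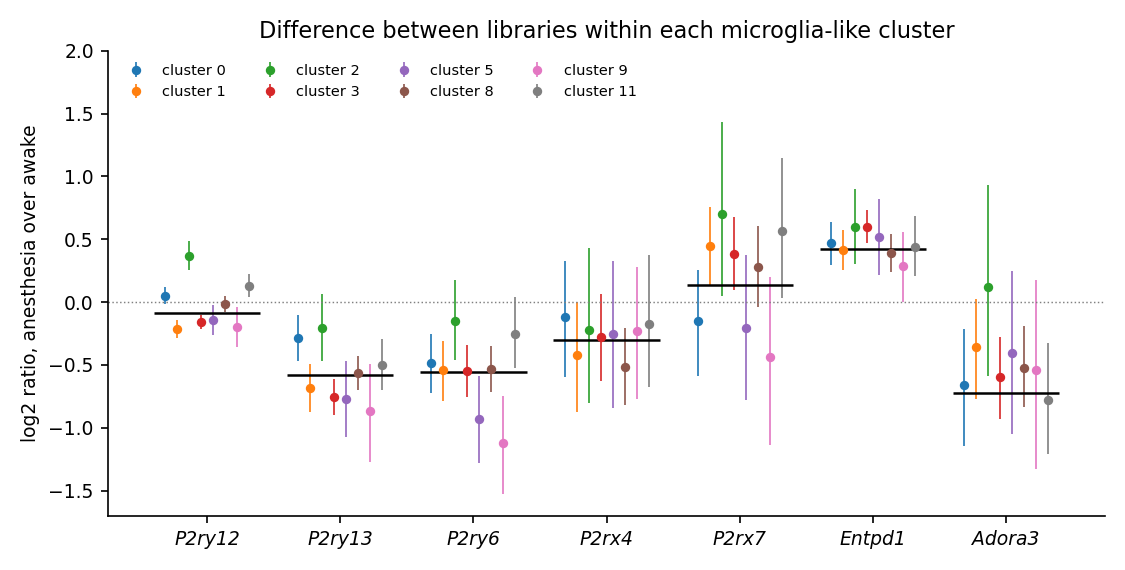
Log2 ratio of CPM, anesthesia over awake, of the 7 measured members within each of 8 microglia-like clusters. Points are clusters, vertical lines exact 95% intervals that cover counting error, and black bars the ratio over all microglia-like cells; every P2ry13, P2ry6 and P2rx4 point lies below 0 and every Entpd1 point above 0.

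A small cluster stood apart from the other microglia-like clusters in its ADP receptors. Cluster 9 (75 anesthesia and 228 awake cells) was led by Clec7a, Lgals3, Spp1, Lpl, Cst7 and Apoe, genes known from microglia around amyloid plaques and in development. Since purinergic genes were kept out of the clustering, their levels did not define it. P2ry12 was at 748 CPM in this cluster against 1710 CPM in the other microglia-like cells of the anesthesia library, and at 858 CPM against 1845 CPM in the awake library. The log2 ratios, cluster 9 over the rest, were -1.19 (-1.34 to -1.05) in the anesthesia and -1.11 (-1.18 to -1.04) in the awake library. P2ry13 was lower as well, at -0.97 (-1.35 to -0.62) in the anesthesia and -0.70 (-0.84 to -0.56) in the awake library.

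P2rx4 was higher in cluster 9, so this group of cells had less RNA of both ADP receptors and more of an ATP-gated channel. Its level was 74.0 CPM against 47.6 CPM in the rest of the anesthesia library and 86.8 CPM against 57.7 CPM in the rest of the awake library, log2 ratios of 0.64 (0.14 to 1.09) in the anesthesia and 0.59 (0.36 to 0.82) in the awake library. Entpd1 was slightly lower, at -0.31 (-0.56 to -0.08) in the anesthesia and -0.18 (-0.33 to -0.04) in the awake library. P2ry6 gave -0.35 (-0.73 to 0.01) in the anesthesia and 0.24 (0.11 to 0.37) in the awake library, which is no common direction. P2rx7 gave -0.63 (-1.27 to -0.05) in the anesthesia and -0.05 (-0.33 to 0.21) in the awake library, and Adora3 -0.24 (-0.98 to 0.40) in the anesthesia and -0.44 (-0.74 to -0.15) in the awake library.

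Outside cluster 9, P2ry12 was highest in cluster 0 of the anesthesia library, at 1857 CPM, and in cluster 3 of the awake library, at 1990 CPM. Cluster 3, led by Ccl7, Ccl2, Egr2 and Egr3, had the highest Entpd1 level of the anesthesia library, 406 CPM, and the highest P2ry13 level of the awake library, 429 CPM. In cluster 5, led by interferon response genes such as Ifit3 and Irf7, P2ry6 was at 138 CPM in the anesthesia and 263 CPM in the awake library, a log2 ratio of -0.93 (-1.28 to -0.59). This was not particular to cluster 5: in cluster 9 the P2ry6 log2 ratio, anesthesia over awake, was -1.13 (-1.52 to -0.75).

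**Figure D3:**
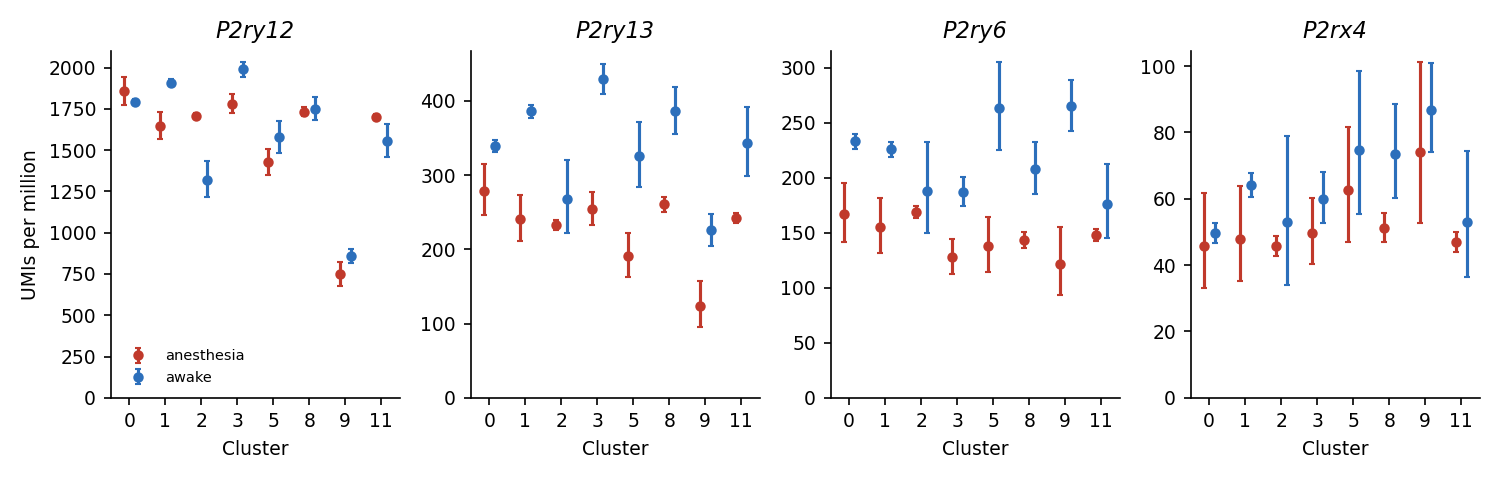
Levels of P2ry12, P2ry13, P2ry6 and P2rx4 in CPM, by microglia-like cluster, in the anesthesia and the awake library. Bars are exact 95% Poisson intervals; cluster 9 has the lowest P2ry12 level in both libraries, 748 and 858 CPM, and the highest P2rx4 level, 74.0 and 86.8 CPM.

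Shares of cells with a UMI were compared at equal depth, with each cell thinned to 2000 UMIs. This left out 304 anesthesia and 187 awake microglia-like cells that were shallower. P2ry12 was seen in 94.3% (93.8 to 94.8) of 8133 anesthesia and 95.1% (94.6 to 95.6) of 7332 awake cells, with a mean of 3.37 UMIs per thinned anesthesia and 3.60 per thinned awake cell. P2ry13 was seen in 38.0% (36.9 to 39.0) of anesthesia and 49.7% (48.6 to 50.9) of awake cells, and P2ry6 in 25.6% of anesthesia and 34.8% of awake cells. The receptor genes with lower CPM in the anesthesia library were also seen in fewer of its cells. At equal depth the share follows largely from the CPM, so it is no separate support for these differences. Entpd1 was seen in 47.7% (46.6 to 48.8) of anesthesia and 39.7% (38.5 to 40.8) of awake cells. P2rx4 was seen in 8.62% of anesthesia and 11.1% of awake cells, P2rx7 in 13.3% of anesthesia and 11.9% of awake cells, and Adora3 in 8.24% of anesthesia and 12.8% of awake cells. In 5 of the 7 genes the share was lower in the anesthesia library, the same 5 as for the CPM, with and without thinning. How many of all genes had a lower share was not counted. The median log2 ratio of CPM over all 11392 measured genes was -0.02, so a lower value is common and this count is no finding about the members. Unthinned shares were 98.8% of anesthesia and 99.1% of awake cells for P2ry12, 70.3% of anesthesia and 84.3% of awake cells for P2ry13, and 79.4% of anesthesia and 75.6% of awake cells for Entpd1. As a background, thinned endothelial-like cells, which should lack P2ry12, had a P2ry12 UMI in 37.2% (28.3 to 46.8) of 113 anesthesia and 24.8% (16.7 to 34.3) of 101 awake cells. The other 6 genes were seen in 2.65 to 23.0% of endothelial-like cells in the anesthesia and 0.990 to 15.8% in the awake library, each below its own microglial share. Median depths were 5430 UMIs in anesthesia and 5952 in awake microglia-like cells, and 4486 in anesthesia and 5507 in awake endothelial-like cells.

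Within single cells the counts of the members had low correlations. Of the 21 pairs of measured members, P2ry12 with P2ry13 had the highest Pearson correlation over thinned microglia-like cells, 0.0960 over 8133 anesthesia cells and 0.0855 over 7332 awake cells. It was the one pair at 0.05 or above in both libraries, and it dropped under 0.05 in at least 1 library when cells were thinned to 1000 UMIs. Cells with both genes numbered 2951 in the anesthesia and 3496 in the awake library, against 2910.5 and 3467 expected from the 2 shares. The pair lay above the 95th percentile of the correlation of P2ry12 with 2749 genes, 0.0276 in the anesthesia and 0.0332 in the awake library. Counts this sparse hold correlations low, more so after further thinning, so the value is given as a description. The receptor and the enzyme that removes its ligand, P2ry12 and Entpd1, gave 0.0396 in the anesthesia and 0.0490 in the awake library.

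The 3 genes most like each member by this correlation are given as a description, since their values were as low. For P2ry12 they were Sparc (0.118 anesthesia, 0.106 awake), Cx3cr1 (0.111 anesthesia, 0.106 awake) and Gpr34 (0.0979 anesthesia, 0.0961 awake). Over 2749 genes the 95th percentile of the correlation with P2ry12 was 0.0276 in the anesthesia and 0.0332 in the awake library. For P2ry13 they were Cx3cr1 (0.0710 anesthesia, 0.0514 awake), Maf (0.0517 anesthesia, 0.0469 awake) and Tmem119 (0.0466 anesthesia, 0.0586 awake). For P2ry6 they were Cd83 (0.0461 anesthesia, 0.0470 awake), Trib1 (0.0409 anesthesia, 0.0489 awake) and Etv3 (0.0401 anesthesia, 0.0434 awake). For P2rx4 they were Zfp36l2, Malat1 and Klf2, and for P2rx7 Dleu2, Strn3 and Nisch. For Entpd1 they were Malat1, Fcrls and Dock10, and for Adora3 Klhl24, Dock10 and 9930111J21Rik2. The values of these genes, like those for P2ry6, stayed under 0.05 in both libraries. All points share 1 library and 1 depth.

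To set microglia against macrophages and endothelial cells, the microglial RNA found in the other classes has to be counted first, because microglial markers were seen in every class. Free RNA, cells captured together and the cells' own expression were not told apart. In endothelial-like cells the 10 microglial markers had a median of 43.6% of their microglial level in the anesthesia library (range 40.9 to 90.2) and 19.6% in the awake library (15.9 to 100.2). Sparc, which endothelial cells make themselves, set the top of both ranges, and without it they were 40.9 to 46.5% in the anesthesia and 15.9 to 20.4% in the awake library. In macrophage-like cells the markers had a median of 87.5% (80.2 to 106) in the anesthesia and 55.0% (45.7 to 79.4) in the awake library. A member within such a range cannot be told apart from this background.

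P2ry12 was within or just below the range of the microglial markers in both other classes. It was at 657 CPM in endothelial-like and 1701 CPM in microglia-like cells of the anesthesia library, or 38.6% (35.4 to 42.0) of the microglial level, and at 16.1% (13.9 to 18.5) in the awake library. In macrophage-like cells it was at 88.2% (82.9 to 93.7) in the anesthesia and 45.2% (40.3 to 50.5) in the awake library. The UMIs sat in few endothelial-like cells: 13 of 113 anesthesia and 7 of 101 awake thinned cells held 50% of the P2ry12 UMIs. This was not particular to P2ry12. The same share sat in 9 anesthesia and 8 awake cells for Entpd1, and in 4 anesthesia and 2 awake cells for P2ry13. P2ry13 was also within or just below that range. In endothelial-like cells it was at 36.6% of the microglial level in the anesthesia and 15.1% in the awake library, and in macrophage-like cells at 81.0% in the anesthesia and 51.9% in the awake library.

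P2rx7 was higher in macrophage-like than in microglia-like cells of both libraries. Its level was 222 CPM in 39 macrophage-like against 70.1 CPM in microglia-like cells of the anesthesia library, 317% of the microglial level (268 to 372), and 127 CPM in 51 macrophage-like against 64.0 CPM in microglia-like cells of the awake library, 198% (146 to 263). Both intervals lie above the highest microglial marker. P2rx4 was at 247% (185 to 322) in the awake library, also above the markers, and at 128% (92.5 to 173) in the anesthesia library, where the interval overlaps them. The P2rx7 values rest on 156 anesthesia and 48 awake UMIs, and the P2rx4 values on 43 anesthesia and 55 awake UMIs.

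The macrophage-like cells of the 2 libraries were not alike in depth or markers. Their median depth was 14056 UMIs in the anesthesia and 6843 in the awake library. The 10 macrophage markers summed to 1869 CPM in the anesthesia and 5815 CPM in the awake library, against 145 CPM in anesthesia and 147 CPM in awake microglia-like cells, and none of the 10 was at 0. The microglial markers summed to 20888 CPM in the anesthesia and 16102 CPM in the awake macrophage-like cells, so the 39 anesthesia cells held nearly the level of microglia-like cells. Whether these cells include mixtures of macrophages and microglia was not tested. The part of this difference in the values of P2rx7 and P2rx4 was not tested. P2ry6 was at 119% (99.4 to 142) of the microglial level in the anesthesia and 89.8% (70.8 to 112) in the awake library, with both intervals overlapping the markers. Entpd1 was at 85.6% in the anesthesia and 65.4% in the awake library, within the marker range of each. Adora3 was at 76.9% (48.7 to 116) in the anesthesia and 22.5% (8.25 to 49.0) in the awake library, where it rests on 6 UMIs.

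Entpd1, which in vessels is known to clear the ADP that activates platelets, was at a higher percent of its microglial level in endothelial-like cells than P2ry12 in both libraries, with intervals that did not overlap. It had 181 CPM in endothelial-like against 335 CPM in microglia-like cells of the anesthesia library, 54.2% (45.9 to 63.6), and 95.8 CPM in endothelial-like against 250.3 CPM in microglia-like cells of the awake library, 38.3% (29.5 to 48.8). These lie inside the ranges that include Sparc. Without Sparc, a choice made after seeing the data, the awake interval lies above the markers and the anesthesia interval overlaps their top value. P2rx4 in endothelial-like cells was at 77.4% (52.5 to 110) in the anesthesia and 30.1% (15.5 to 52.6) in the awake library, from 31 anesthesia and 12 awake UMIs. P2rx7 was at 64.7% (45.7 to 88.9) in the anesthesia and 16.1% (6.47 to 33.2) in the awake library. Both intervals lay above that of P2ry12 in the anesthesia library, as for Entpd1, and overlapped it in the awake library. P2ry6 was at 49.5% (38.1 to 63.3) in the anesthesia and 13.7% (8.46 to 20.9) in the awake library.

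The adenosine receptors and Nt5e gave few UMIs outside microglia. Adora2a, a receptor known in vessels and neurons, had 3 UMIs in endothelial-like cells of the anesthesia and 2 in those of the awake library, with levels of 3.58 CPM (0.739 to 10.5) in the anesthesia and 2.95 CPM (0.357 to 10.6) in the awake library. Microglia-like cells had 0.266 CPM in the anesthesia and 0.478 CPM in the awake library. Macrophage-like cells had 0 UMIs of Adora2a and Nt5e in both libraries, where a limit of 3 counts allows up to 4.28 CPM in the anesthesia and 7.92 CPM in the awake library. Adora3 in endothelial-like cells was at 50.4% (29.8 to 79.9) in the anesthesia and 14.7% (5.89 to 30.2) in the awake library, with intervals that overlap the markers.

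**Figure D4:**
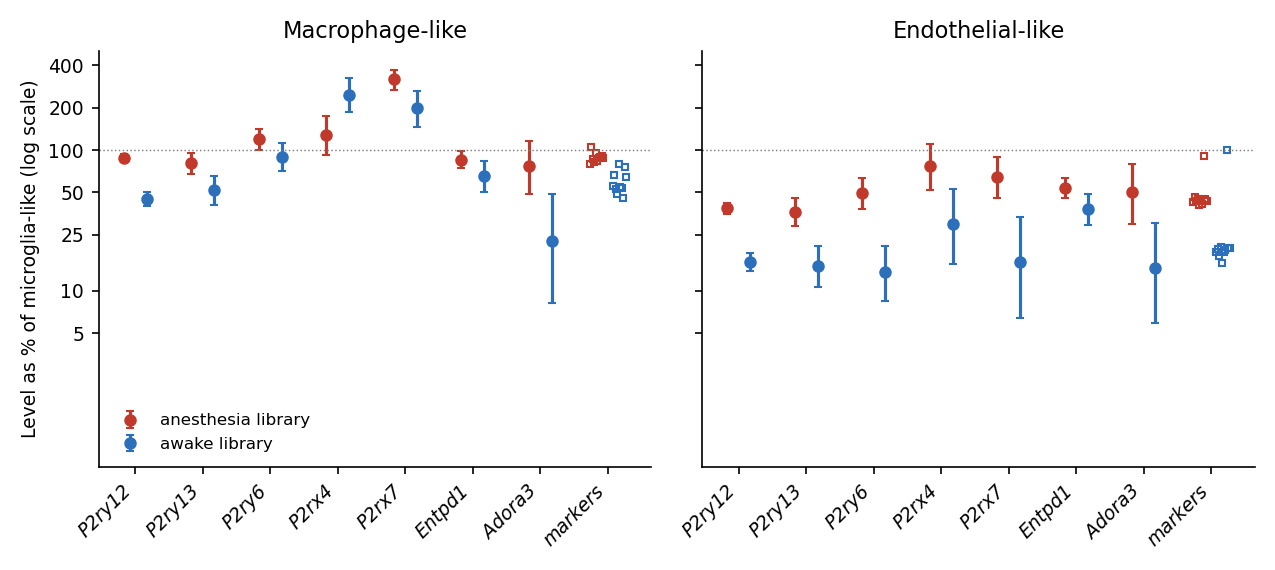
Level of the 7 measured members in border-associated macrophage-like (left) and endothelial-like cells (right), as a percent of the level in microglia-like cells of the same library, on a log scale. Points carry exact 95% intervals that cover counting error, open squares are the 10 microglial markers, and the dotted line is 100%; P2rx7 in macrophage-like cells lies at 317% and 198%, above every marker of its library.

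The wider system was read from a list of 69 genes for nucleotide receptors, enzymes, transporters and signalling partners, of which 45 were measured in microglia-like cells. In the anesthesia library 3 were at least 1.5-fold higher and 6 lower, 5 of these 6 outside the 10 members. Over all measured genes 13.2% were higher and 11.9% lower, so the lower count of the list is near the background and its higher count is under it. The shares over all genes apply to the counts by role below, which are small. The median log2 ratio of the 45 was -0.09, beside -0.02 over all measured genes. Of the other nucleotide receptors, P2ry10b, a relative of the lysophosphatidylserine receptor gene P2ry10, had a log2 ratio of 0.41 and P2rx1, an ATP-gated channel best known from platelets, 0.22. The remaining receptors on the list had too few UMIs.

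Among the nucleotide hydrolases, 1 of 6 measured genes was past 1.5-fold. Enpp1, which cleaves ATP to AMP and pyrophosphate and also degrades the cyclic dinucleotide cGAMP, had 430 UMIs (7.63 CPM) in the anesthesia and 167 (3.47 CPM) in the awake library, a log2 ratio of 1.14 (0.88 to 1.40). Enpp4 was at 0.52 and Entpd1, as above, at 0.42. Of the 10 measured genes of purine metabolism, 1 was higher and 2 were lower. Ada, which turns adenosine into inosine, had 7.72 CPM in the anesthesia and 4.17 CPM in the awake library, a log2 ratio of 0.89 (0.64 to 1.14). The nucleotidases Nt5c and Nt5c3, which act on nucleotides inside the cell, were lower, at -0.64 (-0.75 to -0.53) and -0.97 (-1.14 to -0.80). Pnp, which cleaves inosine and was the most abundant of this group, had 436 CPM in the anesthesia and 582 CPM in the awake library, a log2 ratio of -0.42.

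Release and transport genes were the group with the lowest median among those with more than 1 measured gene, -0.54 over 7 genes beside -0.02 over all measured genes, with 3 lower and 0 higher at 1.5-fold (11.9% lower and 13.2% higher over all genes). Calhm2, of a family of channels that pass ATP, had 732 UMIs in the anesthesia and 1197 in the awake library, a log2 ratio of -0.94 (-1.07 to -0.80). Panx1, the pannexin channel that releases ATP, had 200 UMIs in the anesthesia and 277 in the awake library, a log2 ratio of -0.70 (-0.97 to -0.43). The nucleoside transporter Slc29a2 had 83 anesthesia and 134 awake UMIs, a log2 ratio of -0.92. Of the 14 measured transducers and effectors, 1 was past 1.5-fold. Pik3cg, the phosphoinositide 3-kinase that responds to G proteins, had 157 CPM in the anesthesia and 93.6 CPM in the awake library, a log2 ratio of 0.75 (0.70 to 0.80). Gnai2, the most abundant Gi subunit of the list and a partner of P2ry12, stayed close to 0 at -0.12, and Kcnk13, the potassium channel that P2ry12 signalling is known to act on in microglial surveillance, had -0.46 (-0.53 to -0.40). Several of these calls end under another processing: Ada and Nt5c with the ratio averaged within clusters, Pik3cg, Nt5c and Panx1 with the GC and length trend removed, Slc29a2 without the high Scrublet scores or the cells over 10000 UMIs, and Enpp1, Panx1 and Slc29a2 with cells thinned to 2000 UMIs.

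**Figure D5:**
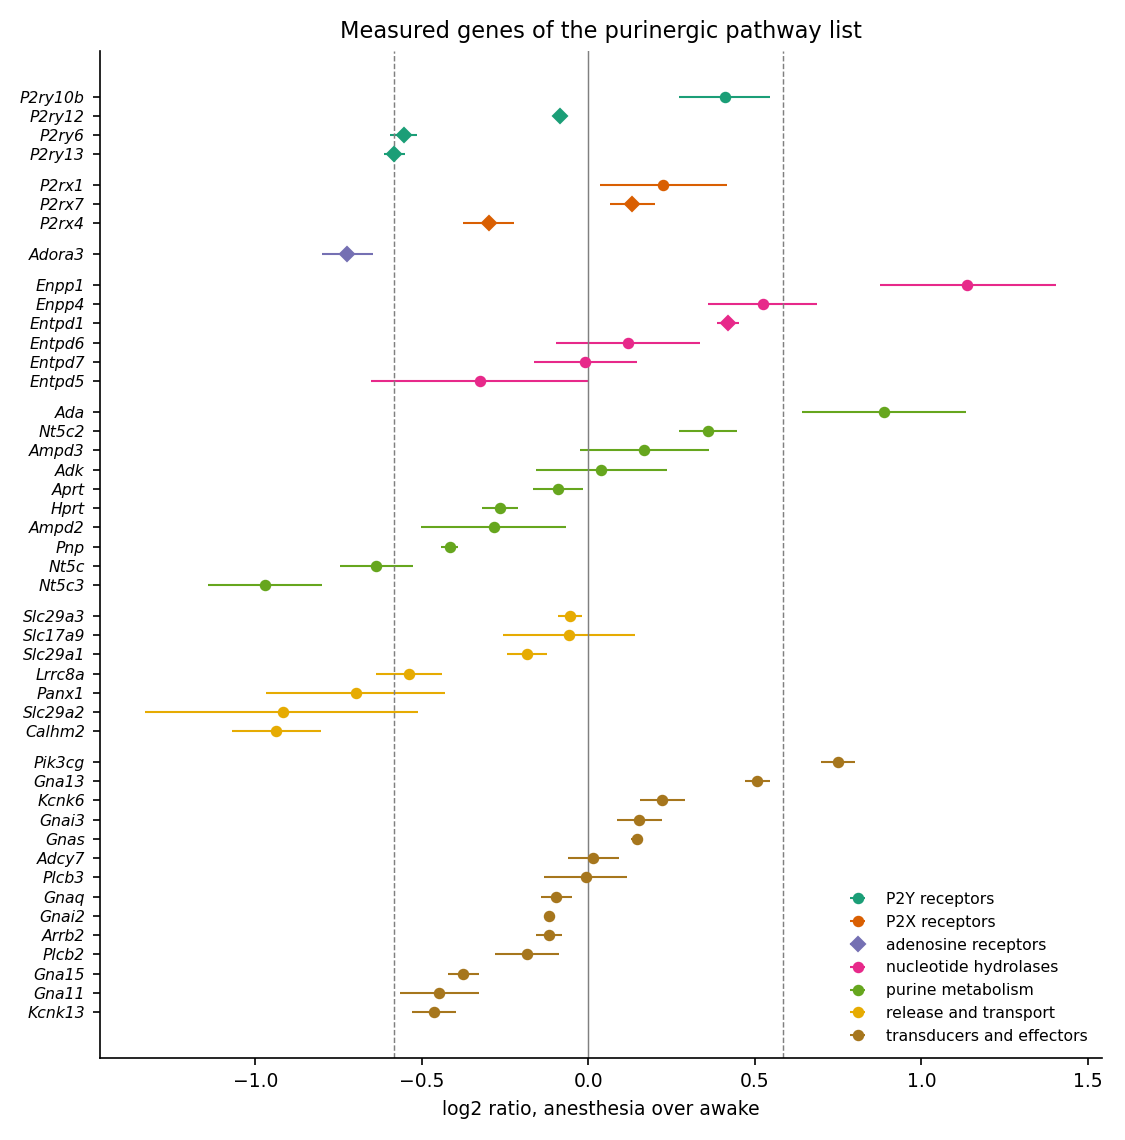
Log2 ratio, anesthesia over awake, of the 45 measured genes of the purinergic list in microglia-like cells, grouped by role, with exact 95% intervals that cover counting error. Diamonds are the members described here and dashed lines mark 1.5-fold; Enpp1 is highest at 1.14 and Nt5c3 lowest at -0.97.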

How the data were processed

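UMI counts per gene and barcode were deposited as whole-number counts, not normalized, 1 table per library. The tools were bcl2fastq and Cell Ranger 3.1.0 with GRCm38, per the submitters' processing notes, whereas the file headers name Cell Ranger 4.0.0. The lowest deposited barcode has 501 UMIs. The sources used here do not describe how the authors called cells. The 10 members and all lists were chosen with earlier results of these data known.

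Cells with at least 500 genes, 1000 UMIs and at most 10% mitochondrial UMIs were kept and clustered with scanpy 1.11.5 (2000 variable genes without the purinergic list, 30 components, 15 neighbours, Leiden resolution 0.6). Clusters that were not microglia-like, or that had a leading marker of another class, were clustered again. Other classes were named where 3 of the class's 10 markers were among the 10 leading genes and 3 were seen in 25% of cells. Scrublet called 1 anesthesia and 0 awake cells, so it did not work here and removed none. Counts were summed per library and class and scaled to CPM. Ratios carry exact conditional binomial, levels exact Poisson and shares Clopper-Pearson intervals. With 1 library per group there is no test. All 10 members are named, list genes past 1.5-fold, and the 3 genes most like each measured member. Other list genes named were chosen after their values were seen. Promoters are from RefSeq (GRCm38.p6). The ratio and thinning steps were tested on simulated counts.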

Additional observations from a re-analysis of the deposited data

How the results depend on the processing

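No paired analysis was possible because each group has 1 library. The member ratios kept their sign under 10 alternatives, from -0.71 to -0.56 for P2ry13, -0.58 to -0.43 for P2ry6, -0.74 to -0.51 for Adora3, 0.41 to 0.47 for Entpd1, -0.32 to -0.15 for P2rx4 and 0.13 to 0.25 for P2rx7. P2ry12 ranged from -0.33, with the trend of GC content and transcript length removed, to -0.07. Another scaling moved all ratios by at most 0.018 (log2).

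Instead of 1 member, 2 were at least 1.5-fold lower with no count filter (Adora3 and Adora2a), and with at most 5% mitochondrial UMIs, without cells over 10000 UMIs or with the GC and length trend removed (P2ry13 and Adora3 in each). At 2-fold 0 members were lower and at a log2 threshold of 0.32 there were 3, with 1 higher. Within clusters the lower member was P2ry13 instead of Adora3. Of the purinergic list 8 genes were higher with no count filter, 1 at 2-fold and 8 at the 0.32 threshold, and 0 were lower at 2-fold and 14 at the 0.32 threshold. The shares of all genes under these settings were not counted. Apart from the limit of 27.54% for genes lower at the 0.32 threshold, these counts have no background beside them. The cause was not tested.

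In endothelial-like cells of the anesthesia library 1 member, Adora2a, had its interval above the microglial markers, 0 after dropping the top 8% of Scrublet scores, and 2 without Sparc (P2rx4 and Adora2a). In the awake library 0 became 2 without Sparc (Entpd1 and Adora2a). In macrophage-like cells these settings and resolution 1.0 changed no such count. Without the high Scrublet scores the markers fell to a median of 9.0% of their microglial level in awake endothelial-like cells, with P2ry12 at 8.22% and Entpd1 at 27.7%. With the marker median subtracted, P2rx7 in macrophage-like cells was at 229.5% of the microglial level in the anesthesia and 143% in the awake library. P2rx4 was left at 40.7% in the anesthesia and 192% in the awake library. The class total was left whole, with the microglial RNA in it. These remainders are therefore lower than levels over the remaining RNA alone would be. The 40.7% for P2rx4 does not show a level below that of microglia. The member pairs at a correlation of 0.05 or above became 0 when cells were thinned to 1000 UMIs. The range without Sparc, unthinned shares, all deposited barcodes and equal cells of 2000 UMIs were chosen after seeing the data. Depth limits Adora1, Adora2a and Nt5e, and 39 anesthesia and 51 awake cells limit the macrophage-like class.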
